A study of Mus musculus with 8 samples.

Results

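Transcription factor genes of the AP-1 network were followed through RNA-seq libraries of sorted 4T1 cells, a mouse mammary carcinoma line. They are Fos, Fosb, Fosl1 and Fosl2 of the FOS family, Jun, Junb and Jund of the JUN family, Atf3, the small MAF factor Maff and the BATF factor Batf3. The genes were chosen by family and matched by symbol to the Ensembl IDs of the count table, and all 10 of these members were found among 16341 genes counted. All 10 were also among the 11717 genes that had enough counts to be tested. The choice was made with the comparison of the fractions in view, so the differences of these 10 genes are given as a description, with no p-value.

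The libraries came from cells separated by SCA1, a surface protein encoded by Ly6a. The groups are 4T1-Sca1+ and 4T1-Sca1-, with 4 libraries each, and both were taken from the same parental line with magnetic columns. Genetic differences between the fractions were not tested. Handling during the sort may differ with the fraction, and its part in the values of stress-induced genes was not tested. The labels add a CD45-negative gate, and their protocol speaks of stained tumor. Nothing states that the 4 replicates of a group were independent cultures, and p-values measure only the spread among these libraries, which may be technical. Library totals lay between 15041995 and 16968215 counts for 4T1-Sca1+ and between 13561804 and 16142836 counts for 4T1-Sca1-. As a check of the labels, Ly6a averaged 167 ± 20.2 normalized counts (counts divided by the size factor of the library) for 4T1-Sca1+ against 1.79 ± 1.73 for 4T1-Sca1- (SD, n = 4). Of 9 epithelial markers, all were tested, with 2 higher and 4 lower in 4T1-Sca1+ cells (edgeR, adjusted p under 0.05). Of all tested genes, 31.3% were higher and 30.2% lower. Epcam had 3128 ± 101 against 3222 ± 35.2 normalized counts and did not pass, while Krt18 rose by 0.38 and Cdh1 (-0.69) was lower on the log2 scale. In bulk libraries, fewer cells that express a gene and less RNA per cell cannot be told apart.

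FOS and JUN proteins bind DNA as dimers held together by a leucine zipper, and the dimer is called AP-1. JUN proteins can pair with each other or with FOS proteins, whereas FOS proteins need a JUN partner. Fos, Fosb, Jun, Junb and Atf3 are immediate-early or stress-induced genes whose short-lived transcripts rise within minutes to hours of growth factors, cytokines or damage, and AP-1 drives genes of growth, invasion and inflammation in mammary carcinoma. ATF3 is best known as a stress-induced factor that often represses its targets. Small MAF proteins lack an activation domain and act through their partners, and BATF3 is known for its role in dendritic cells.

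Promoter sequences are shown because several genes of this network are known to be controlled by AP-1, ATF or serum response factors themselves. RefSeq promoters of GRCm38.p6, from 250 bases before to 50 after the annotated start, were found for 9 of the 10 genes, with 3 for Maff. 5 words were searched on both strands: TGACTCA, the AP-1 site; TGACATCA, a variant of it; TGACGTCA, the cyclic AMP response element; TGACGT, its first part, which every TGACGTCA contains; and TGATGCAA, a C/EBP-ATF composite element bound by ATF4. The CArG box of serum response factor was searched as well. The promoters shown are those that held a match, with the matched letters in capitals. They are Atf3 (chr1:191183284-191183583, minus strand), Jun (chr4:95052173-95052472, minus strand), Fos (chr12:85473640-85473939, plus strand) and the upstream and downstream Maff starts with a match (chr15:79347270-79347569, plus strand, and chr15:79348152-79348451, plus strand).
Atf3: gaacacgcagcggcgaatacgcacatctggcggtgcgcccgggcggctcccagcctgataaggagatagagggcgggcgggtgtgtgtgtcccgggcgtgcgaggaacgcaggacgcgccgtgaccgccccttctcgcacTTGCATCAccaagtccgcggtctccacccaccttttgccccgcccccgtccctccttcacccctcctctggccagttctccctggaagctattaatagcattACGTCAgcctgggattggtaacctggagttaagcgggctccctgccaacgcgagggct
Jun: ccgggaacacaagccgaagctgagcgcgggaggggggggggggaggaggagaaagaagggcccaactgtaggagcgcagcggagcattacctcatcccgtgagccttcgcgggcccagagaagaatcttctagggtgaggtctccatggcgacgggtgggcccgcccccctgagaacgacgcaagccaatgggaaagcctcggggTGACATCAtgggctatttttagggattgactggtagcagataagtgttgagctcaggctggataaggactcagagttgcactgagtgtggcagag
Fos: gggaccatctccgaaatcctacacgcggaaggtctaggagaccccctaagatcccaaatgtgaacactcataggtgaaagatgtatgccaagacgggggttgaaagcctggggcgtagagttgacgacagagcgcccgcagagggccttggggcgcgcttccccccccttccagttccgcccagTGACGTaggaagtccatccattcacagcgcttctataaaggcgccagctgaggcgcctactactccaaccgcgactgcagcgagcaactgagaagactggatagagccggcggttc
Maff, upstream start: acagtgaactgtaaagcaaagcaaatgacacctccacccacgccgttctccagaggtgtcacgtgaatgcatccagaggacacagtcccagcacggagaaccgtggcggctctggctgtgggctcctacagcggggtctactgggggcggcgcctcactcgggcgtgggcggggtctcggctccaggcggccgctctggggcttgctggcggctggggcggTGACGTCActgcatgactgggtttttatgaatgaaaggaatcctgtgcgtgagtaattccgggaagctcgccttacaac
Maff, downstream start: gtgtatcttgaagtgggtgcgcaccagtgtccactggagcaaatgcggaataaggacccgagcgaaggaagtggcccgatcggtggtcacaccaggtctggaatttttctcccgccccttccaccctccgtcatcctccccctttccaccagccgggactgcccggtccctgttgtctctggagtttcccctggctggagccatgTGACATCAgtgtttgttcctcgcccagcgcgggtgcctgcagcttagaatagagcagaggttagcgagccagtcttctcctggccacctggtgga

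Among these genes the composite element was found only in the Atf3 promoter. It read TTGCATCA on the strand shown, at positions -110 to -103 counted from the start, and 0.895% of the 32851 RefSeq promoters held this word. Atf3 also held the reverse of TGACGT at -8 to -3, and Fos held TGACGT at -66 to -61, a word present in 7.51% of promoters. The Jun promoter held the AP-1 variant TGACATCA at -45 to -38 and the downstream Maff start held it at the same positions, against 3.62% of promoters. The upstream Maff start held a whole TGACGTCA at -29 to -22, as did 1.79% of promoters. No member's promoter held TGACTCA (5.20% of promoters) or a CArG box (1.63%) within these windows. A match is only a run of letters and was not tested for binding. The Atf3 window lies inside the gene as annotated, which runs to 191218039 on the minus strand. The sequence at that outermost start was not searched.

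Atf3 differed most between the fractions. Its normalized counts were 291, 286, 272 and 295 in the 4T1-Sca1+ libraries and 1658, 1487, 1652 and 1398 in the 4T1-Sca1- libraries. Every 4T1-Sca1- library was thus far above every 4T1-Sca1+ library. Means were 286 ± 9.82 and 1549 ± 128 (SD, n = 4), a log2 fold change of -2.42 ± 0.07 (standard error), or 5.36-fold less in 4T1-Sca1+ cells. Of the 11717 tested genes, 4 had a lower log2 fold change. The study lists Atf3 in its Sca1-negative signature. That list was made from these same libraries and is no independent evidence.

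The other 9 members lay close together. Their log2 fold changes ran from -0.35 for Fosb to 0.56 for Batf3, and 1626 tested genes lay below Fosb. The gap between Atf3 and Fosb was -2.08 on the log2 scale. At an adjusted p under 0.05 over all tested genes (edgeR), 3 members were higher in 4T1-Sca1+ cells (Jund, Maff and Batf3) and 3 were lower (Atf3, Fosb and Fosl2). Of all tested genes, 61.5% passed in either direction, with 31.3% higher and 30.2% lower. The median log2 fold change was -0.03 over the members and 0.01 over all tested genes. The groups of libraries did not overlap for 4 members (Fosl2, Atf3, Maff and Batf3), as for 54.7% of tested genes. Of these, Maff and Batf3 were higher in 4T1-Sca1+ cells, as were 26.8% of tested genes, and Fosl2 and Atf3 were lower, as were 27.9%. With offsets corrected for transcript GC content, 1 member was higher and 6 were lower, against 33.3% and 31.8% of tested genes. With DESeq2, 1 was higher and 3 were lower, against 25.2% of tested genes in each direction.

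**Figure D1:**
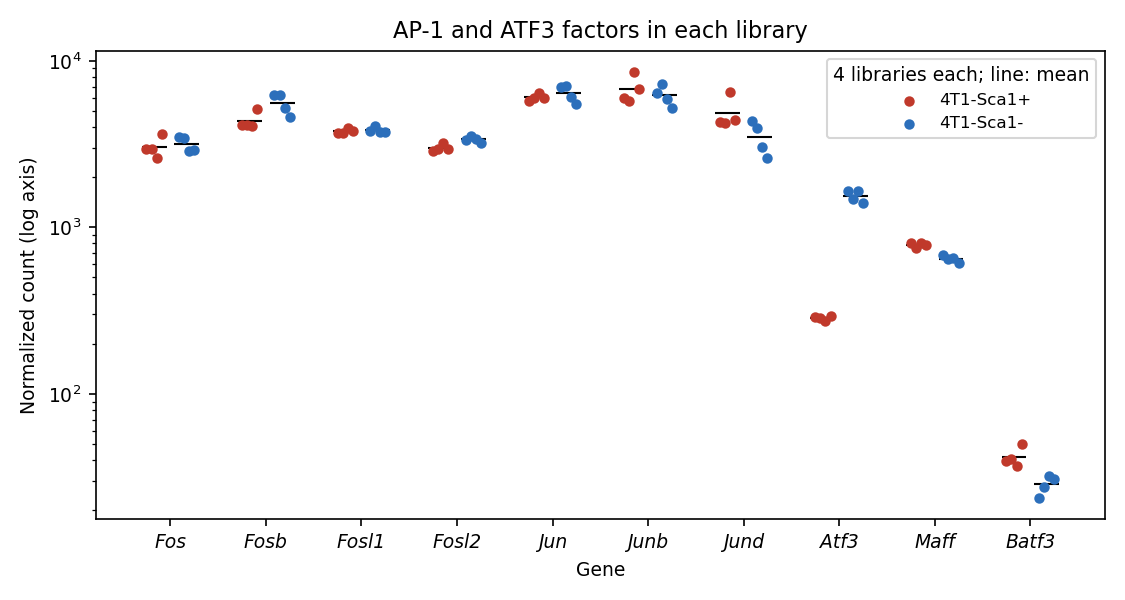
Normalized counts (log axis) of the 10 genes in each of the 4 4T1-Sca1+ (red) and 4 4T1-Sca1- (blue) libraries, with a line at each group mean. Atf3 is at 272 to 295 in 4T1-Sca1+ and 1398 to 1658 in 4T1-Sca1- libraries, while the other genes lie close together or overlap.

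**Figure D2:**
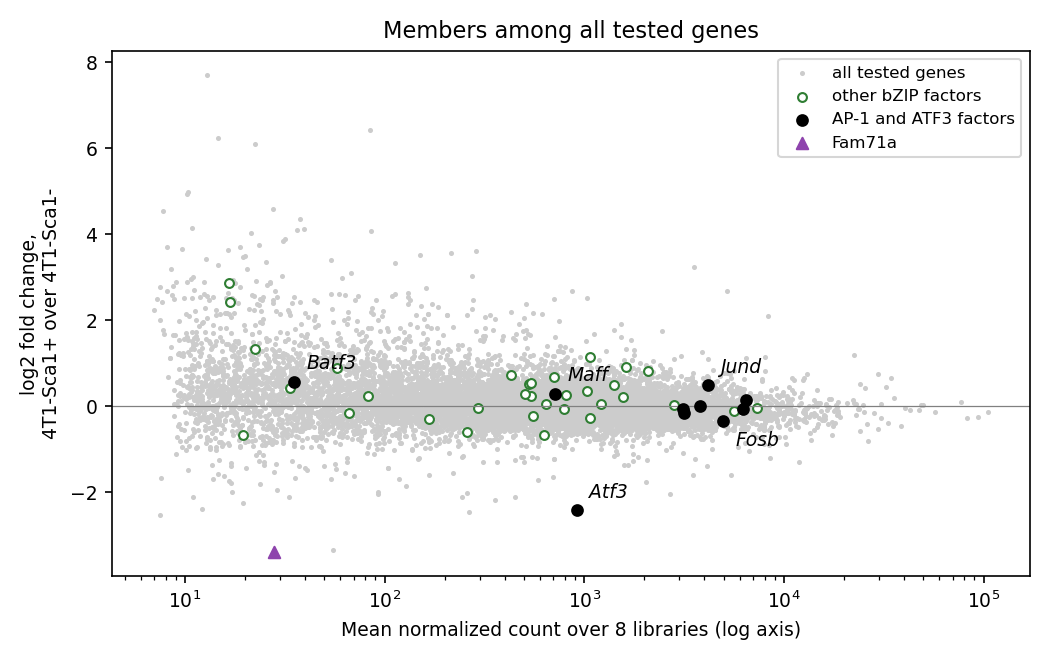
Log2 fold change of 4T1-Sca1+ over 4T1-Sca1- against the mean normalized count over the 8 libraries (log axis) for all 11717 tested genes (grey), other bZIP factors (open green circles) and the 10 members (black). Atf3 at -2.42 lies at the lower edge of the cloud, Fam71a (triangle) lies lower at -3.41 and farther left at a mean of 27.8 normalized counts, and the other members lie between -0.35 and 0.56.

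The ratio of Atf3 to another gene within a library does not depend on how libraries are scaled. Atf3 counts were 7.07%, 6.98%, 6.69% and 5.77% of the Fosb counts in the 4T1-Sca1+ libraries. In the 4T1-Sca1- libraries they were 26.5%, 23.9%, 31.6% and 30.4%. Against each of the other 9 members the ratio separated the groups without overlap. All 9 ratios share the Atf3 counts, which separate the groups alone, so they are not independent comparisons. The mean log2 ratio differed by -2.08 against Fosb, the smallest difference, and by -2.97 against Batf3, the largest. Against Maff the ratio changed sides, with a mean log2 ratio of -1.46 ± 0.08 for 4T1-Sca1+ against 1.25 ± 0.07 for 4T1-Sca1- (SD, n = 4).

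Levels were compared between genes per length, as counts per kilobase of exon scaled to the same sum in every library (TPM, computed here from the counts). Atf3 took place 9 of 10 in 4T1-Sca1+ cells, with 33.7 ± 1.37 TPM, and place 7 of 10 in 4T1-Sca1- cells, with 176 ± 15.7 TPM (SD, n = 4). In 4T1-Sca1+ cells the order was Junb (745 TPM), Jund (736), Jun (481), Fosl1 (471), Fos (328), Fosb (177), Fosl2 (78.4), Maff (77.1), Atf3 and Batf3 (6.62). Neighbours within their SDs were Junb and Jund, Jun and Fosl1, and Fosl2 and Maff. In 4T1-Sca1- cells Atf3 stood above Fosl2 (85.0 TPM) and Maff (61.1), and below Fosb (218 ± 31.1) in every library. Per length of the longest transcript the places of Atf3 were the same, with 143 ± 12.8 TPM against 270.4 ± 38.7 for Fosb in 4T1-Sca1- cells.

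Among the FOS family, only Fosb and Fosl2 passed, both lower in 4T1-Sca1+ cells. Fosb, whose protein is a FOS paralog of the immediate-early response, had normalized counts of 4113, 4094, 4069.5 and 5113 in the 4T1-Sca1+ libraries and 6249, 6217, 5226 and 4601 in the 4T1-Sca1- libraries. 4T1-Sca1+ replicate 4 stood above the other 3 libraries of its group and above 4T1-Sca1- replicate 4, so the groups overlapped. The log2 fold change was -0.35 ± 0.09 (standard error), and it was -0.43 without 4T1-Sca1+ replicate 4.

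Fosl2, which encodes FRA-2, had 2873, 2952, 3189 and 2937 normalized counts in 4T1-Sca1+ and 3363, 3531, 3378 and 3209.7 in 4T1-Sca1- libraries. The groups came close but did not overlap, at a log2 fold change of -0.16 ± 0.05. Fosl1, which encodes FRA-1, a factor tied to invasion in breast carcinoma, had 3662 to 3937 against 3727 to 4040.1 normalized counts. Its log2 fold change of -0.01 ± 0.04 had no stable sign. It was above 0 with upper-quartile scaling, with library totals alone, with at least 10 counts in every library and without some single libraries. With GC-corrected offsets it was -0.17 ± 0.04 and passed as lower. The counts of Fosl1 can hold reads of Ccdc85b, which overlaps it on the opposite strand, and the use of strand is not given in the sources used here. Fos, the founding member, had 2594 to 3609 against 2884 to 3477 normalized counts, with a log2 fold change of -0.06 ± 0.08 that turned positive without 4T1-Sca1+ replicate 3, at 0.01.

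Of the JUN family only Jund passed, higher in 4T1-Sca1+ cells. Jund, the member that is expressed constitutively in many cells, had 4266, 4214, 6455 and 4421 normalized counts in 4T1-Sca1+ libraries and 4329, 3957, 3031 and 2622 in 4T1-Sca1- libraries. 4T1-Sca1+ replicate 3 was far above the other libraries, and 4T1-Sca1- replicate 1 lay among the 4T1-Sca1+ libraries. The log2 fold change was 0.48 ± 0.14, and it was 0.31 without 4T1-Sca1+ replicate 3. Jund did not pass with DESeq2, at 0.47, or with GC-corrected offsets, at 0.07.

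Junb, an immediate-early JUN factor with weaker activating capacity, had 5949, 5747, 8557 and 6783 against 6444, 7298, 5876 and 5221 normalized counts, so the groups overlapped. Its log2 fold change was 0.13 ± 0.10 and turned to -0.15 with GC-corrected offsets and to -0.00095 without 4T1-Sca1+ replicate 3. Prdx2 overlaps Junb on the opposite strand and was counted too. Jun, the main activating partner, had 5772 to 6430.4 against 5507 to 7071 normalized counts with a log2 fold change of -0.07 ± 0.07. With GC-corrected offsets it was -0.17 and passed.

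Maff and Batf3 were higher in every 4T1-Sca1+ library than in any 4T1-Sca1- library. Maff had 811, 746, 805 and 788 normalized counts in 4T1-Sca1+ and 684, 648, 655 and 609.5 in 4T1-Sca1- libraries, a log2 fold change of 0.29 ± 0.06. It was 0.15 with GC-corrected offsets and still passed. Batf3, the least abundant member, had 39.3, 40.4, 36.9 and 49.9 against 23.9, 27.7, 32.3 and 30.8 normalized counts. Its log2 fold change was 0.56 ± 0.18, and it did not pass with GC-corrected offsets (0.35), with DESeq2 (0.55) or at an adjusted p under 0.01. Of 8 dendritic cell markers, 5 were counted and 3 of these had at most 10 counts in every library. Irf8 rose by 1.08 ± 0.10 and Zbtb46 by 0.60 ± 0.19 on the log2 scale (standard error), both named after their values were seen. Both passed as higher at an adjusted p under 0.05 (edgeR), as did 31.3% of all tested genes. Zbtb46 did not pass without 4T1-Sca1- replicate 1 (0.50) or 3 (0.47). The summed level of the list was 304 to 380.0 normalized counts in 4T1-Sca1+ and 151 to 205 in 4T1-Sca1- libraries, mostly from Irf8. The defining markers Xcr1 and Clec9a were not among the genes counted, and their part in the Batf3 value was not tested.

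Some markers of other cell types differed between the fractions as well, and their part in the members' values was not tested. Of 12 leukocyte markers, 9 were counted and 6 of these had at most 10 counts in every library, Ptprc, which encodes CD45, among them with a maximum of 4. The 3 that were tested (Csf1r, Cd74 and S100a8) were higher in 4T1-Sca1+ cells, as were 31.3% of all tested genes. The list summed to 199 to 228 normalized counts against 83.1 to 120.1. Of 8 fibroblast markers, 6 were counted and 3 tested. Col1a1 and Pdgfra were higher, against 31.3% of all tested genes, and Postn did not pass (24.7 against 24.2 normalized counts). The fibroblast list summed to 634 to 671 against 391 to 466 normalized counts, mostly from Pdgfra. Of 6 endothelial markers 5 were counted, and none had enough counts to be tested.

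The make-up of each family was compared per length. The FOS family summed to 1053 ± 68.1 TPM in 4T1-Sca1+ and 1091 ± 75.8 TPM in 4T1-Sca1- cells (SD, n = 4), and the groups overlapped. Fosl1 made up 44.8% ± 2.79 of this sum for 4T1-Sca1+ against 42.1% ± 2.10 for 4T1-Sca1-. Fosb made up 16.7% ± 0.892 and 19.9% ± 1.56. The JUN family summed to 1962 ± 308 and 1658 ± 253 TPM, and these groups overlapped too. Jund made up 37.3% ± 2.08 of it for 4T1-Sca1+ against 30.5% ± 2.65 for 4T1-Sca1-, while Jun made up 24.8% ± 2.73 and 29.7% ± 1.15. The shares of both genes did not overlap between the groups, while the normalized counts of 54.7% of tested genes did not overlap either. These shares are not corrected for GC content, and with GC-corrected offsets the log2 fold change of Jund was only 0.07.

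GC content moved with these differences. Over the tested genes with a transcript sequence, the log2 fold change rose by 0.21 for each 10 percentage points of transcript GC. Jund transcripts have 67.1% GC, Junb 62.6% and Batf3 60.7%, against a median of 49.8% over tested genes, and 99.9% of those genes have less GC than Jund. Atf3 has 52.2%. Within its group, 4T1-Sca1+ replicate 3 leaned most toward GC-rich genes, by 0.15 on the log2 scale for each 10 points. After the GC correction Fosb, Fosl1, Fosl2, Jun, Junb and Atf3 were lower at an adjusted p under 0.05 and Maff alone was higher. Atf3 moved only from -2.42 to -2.45.

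**Figure D3:**
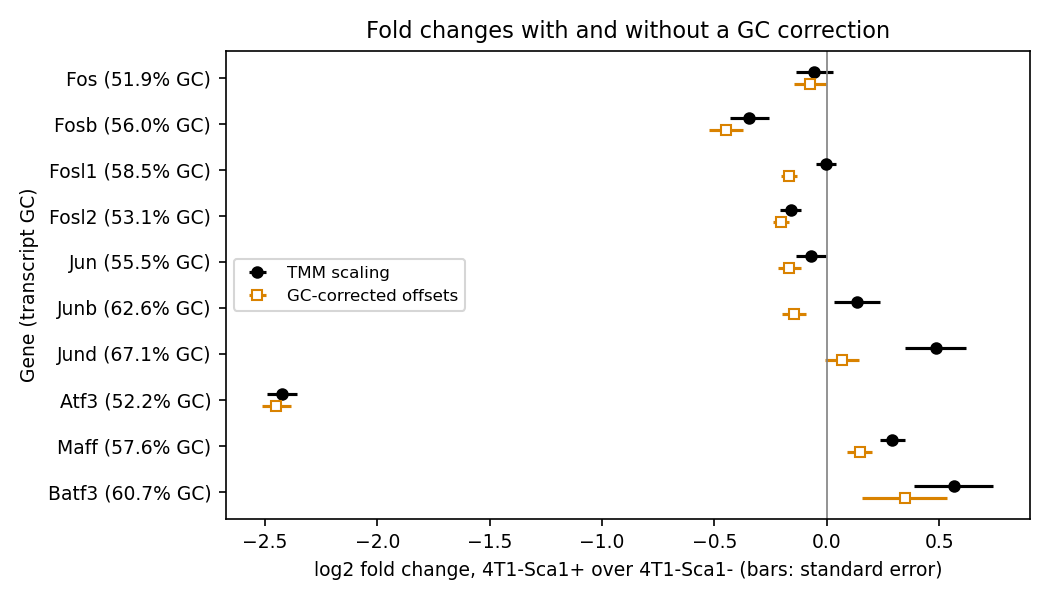
Log2 fold change of each member with its standard error, by TMM scaling (black circles) and with GC-corrected offsets (open squares), with transcript GC content beside each name. The correction moves Jund from 0.48 to 0.07 and Junb from 0.13 to -0.15, across 0, and leaves Atf3 near -2.4.

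The members also differed in how much they varied within a group. The SD of log2 CPM within groups was 0.31 for Jund, 0.23 for Junb, 0.19 for Fosb and 0.17 for Fos, each above the median of 0.098 over tested genes. It was 0.094 for Atf3, 0.061 for Maff, 0.058 for Fosl2 and 0.050 for Fosl1. Fos and Fosb were both highest in 4T1-Sca1+ replicate 4, by 0.26 and 0.24 above their group mean. Jund and Junb were both highest in 4T1-Sca1+ replicate 3, by 0.43 and 0.35. In 4T1-Sca1- replicate 4 all members but Batf3 lay below their group mean, Jund by the most with -0.38.

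**Figure D4:**
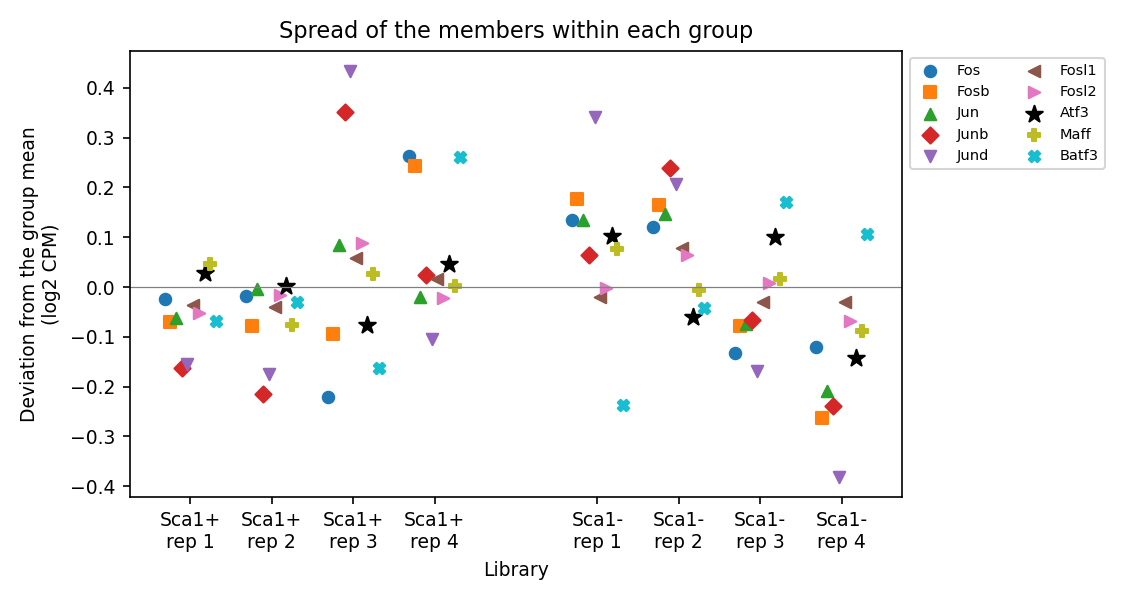
Deviation of each member from the mean of its own group (log2 CPM) in the 8 libraries. Jund, Junb, Fos and Fosb spread up to 0.43 from the mean, while Atf3 (black stars) stays within -0.14 and 0.10.

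The gene next to Atf3 differed in the same direction. Atf3 (ENSMUSG00000026628) lies on the minus strand of chromosome 1 of GRCm38, from 191170296 to 191218039, and has 4 exons in its longest transcript. Fam71a, a gene of a single exon, lies on the same strand from 191162584 to 191164817, 5478 bases past the Atf3 end, with no counted gene between them. Its counts were 5, 7, 3 and 5 in the 4T1-Sca1+ libraries and 66, 54, 45 and 31 in the 4T1-Sca1- libraries. Every 4T1-Sca1- library was above every 4T1-Sca1+ library. Its log2 fold change was -3.41 ± 0.28 (standard error). Fam71a was singled out after its values were seen, and it had enough counts to be tested only through the 4T1-Sca1- libraries, so its value is a description. Its counts were 1.64% ± 0.554 of the Atf3 counts in 4T1-Sca1+ and 3.27% ± 0.605 in 4T1-Sca1- libraries (SD, n = 4). The study's Sca1-negative signature, made from these libraries, lists Fam71a too.

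The rest of the neighbourhood did not share this size of change. Of 14 tested genes within 500 kb of Atf3, 3 were higher and 6 were lower, Batf3 and Fam71a included. Of all tested genes, 31.3% were higher and 30.2% lower. Without Fam71a the values of the tested genes in this window ran from -0.53 for Tmem206 to 1.11 for Vash2, with a median of -0.13. Batf3 itself lies 61.4 kb past the Atf3 end, on the plus strand from 191097847 to 191108945, and went the other way. For the other 9 members, the next counted gene downstream on the same strand was tested in 6 cases, with log2 fold changes from -0.53 to 0.38. Only the neighbours of Fosl1 (4.67 kb, -0.13) and Junb (4.72 kb, 0.07) lay as near as Fam71a. Those of Jun, Fos, Maff and Batf3 lay 69.9 to 217 kb away. None of these members differed as much as Atf3, so the values cannot show whether Atf3 and Fam71a are an unusual pair.

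**Figure D5:**
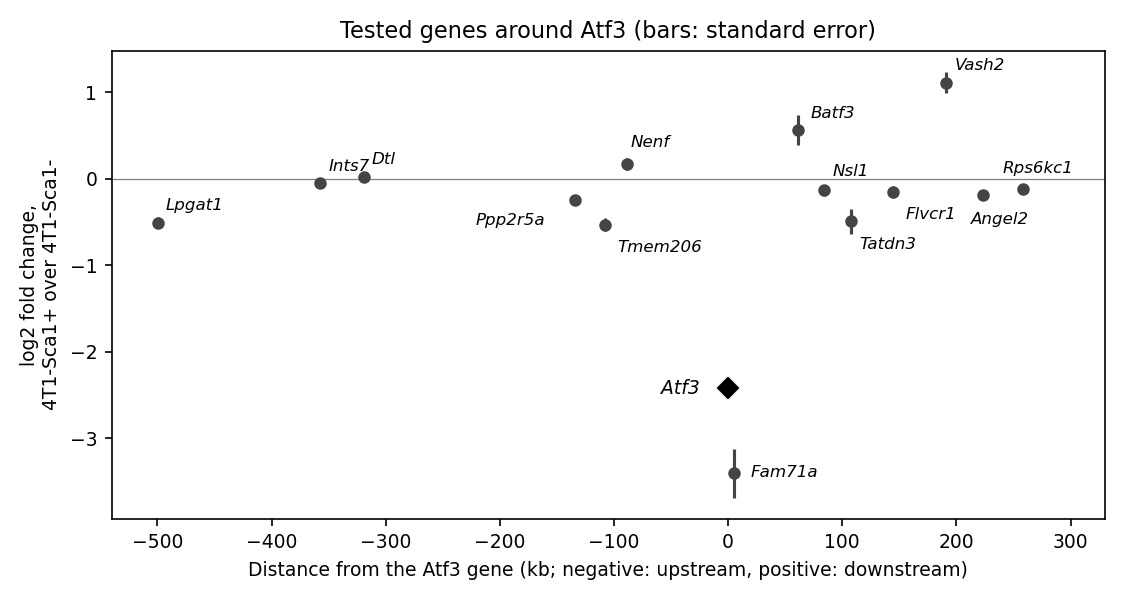
Log2 fold change with standard error of the tested genes within 500 kb of Atf3 against their distance in kb from the gene (negative upstream, positive downstream), with Atf3 as a diamond at 0. Fam71a, 5.48 kb downstream, is at -3.41 beside Atf3 at -2.42, and the other genes lie between -0.53 and 1.11.

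Genes were also ranked by how closely their profile over the 8 libraries followed that of Atf3. The measure was the root mean square difference of log2 CPM after centring each gene on its own mean. Btn1a1, a butyrophilin of milk fat globules, was closest with 0.091. It had 80.3 ± 9.51 normalized counts in 4T1-Sca1+ and 447 ± 17.1 in 4T1-Sca1- cells (SD, n = 4). Vgll3 (0.17), Sdcbp2 (0.19), Rgs16 (0.20) and the chemokine gene Cxcl3 (0.20) followed. All 5 were lower in 4T1-Sca1+ cells, and the measure takes in the size of that difference. The Sca1-negative signature lists Btn1a1, Vgll3, Sdcbp2 and Rgs16.

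Other bZIP factors, the wider family that shares the leucine zipper, were more often higher than lower. Of 43 listed, 40 were counted and 33 tested. Of those tested, 17 were higher and 6 lower, against 31.3% and 30.2% of all tested genes. Another 10 factors did not pass, and the median log2 fold change of the list was 0.24. The lowest was Creb3l4 with -0.68 ± 0.26 at 15.1 ± 2.58 against 24.2 ± 7.97 normalized counts, and it did not pass with DESeq2 or without 4T1-Sca1+ replicate 4 (-0.59) or 4T1-Sca1- replicate 1 (-0.46) or 3 (-0.64). In the other direction, Hlf (2.86 ± 0.39) and Mafa (2.42 ± 0.33) had log2 fold changes as large as that of Atf3 or larger, at low levels. Hlf had 29.3 ± 5.20 against 3.94 ± 3.54 normalized counts and Mafa 28.6 ± 9.06 against 5.22 ± 1.41 (SD, n = 4). Among the factors with a mean of at least 50 normalized counts, Cebpb, a factor of acute-phase and mammary gene expression, rose by 1.13 ± 0.09 (standard error; adjusted p = 1.67e-08, edgeR), from 670.3 to 1464 normalized counts. Atf5 rose by 0.90 and Nfe2l2, which encodes NRF2 and pairs with small MAF proteins, by 0.81. Lower were Creb3 (-0.67), Ddit3 (-0.60), whose product CHOP is a stress-induced partner of C/EBP and ATF factors, the small MAF gene Mafk (-0.27) and Nfil3 (-0.22).

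Kinases and serum response regulators that act upstream of FOS and JUN went both ways. Of 24 listed, 22 were tested, with 7 higher and 8 lower, against 31.3% and 30.2% of all tested genes. The median log2 fold change of the list was -0.07. Mapk3, which encodes ERK1, rose by 0.60 ± 0.07 (adjusted p = 1.26e-06, edgeR). Map3k5 (ASK1, a stress kinase of the JNK pathway) rose by 0.77, and the ternary complex factors Elk1 and Elk4 by 0.51 and 0.42. Map3k8 (-0.35), Mapk13 (-0.25) and Map2k1 (-0.23) were lower. Map3k8 did not pass without 4T1-Sca1+ replicate 3 or 4 or 4T1-Sca1- replicate 1 or 4 (-0.33 to -0.29). Srf, which binds the serum response element of Fos, had a log2 fold change of 0.07 ± 0.07 and did not pass. Its sign turned after the GC correction (-0.26) and when 4T1-Sca1+ replicate 3 was left out (-0.02).

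Other immediate-early genes differed in both directions. Of 20 listed, 18 were tested, with 5 higher and 13 lower, against 31.3% and 30.2% of all tested genes. The median log2 fold change of the list was -0.34. Ccn2 fell by 1.60 ± 0.05 (standard error; adjusted p = 3.91e-14, edgeR), and Klf6 (-1.40), Ccn1 (-1.21) and Klf2 (-1.02) were lower too. Egr3 rose by 1.83 ± 0.11 (adjusted p = 2.3e-10, edgeR), Egr2 by 1.17, Ier2 by 0.57 and Egr1 by 0.42. The study's signatures from these libraries list Ccn2, Klf6, Ccn1 and Klf2 as negative and Egr3 as positive, so these are not independent evidence of direction. Of this list, none fell as far as Atf3.

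Textbook AP-1 targets split evenly. Of 20 listed, 19 were tested, with 9 higher and 9 lower, against 31.3% and 30.2% of all tested genes. The median log2 fold change of the list was -0.11. Csf2, which encodes the cytokine GM-CSF, fell by 1.30 ± 0.09 (standard error; adjusted p = 7.73e-10, edgeR), and Ccl2 (-1.21) and Ptgs2 (-0.67) were lower too. The Sca1-negative signature lists Csf2 and Ccl2. Spp1, which encodes osteopontin, rose by 1.19 ± 0.05 (adjusted p = 2.8e-12, edgeR), the matrix metalloproteinase genes Mmp3 and Mmp10 by 1.12 and 0.88, and Vegfa by 0.91.

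Genes of the integrated stress response, in which ATF4 induces ATF3, did not move one way. Of 11 listed, 10 were tested, with 4 higher and 5 lower, against 31.3% and 30.2% of all tested genes. The median log2 fold change of the list was 0.01. Atf4, named after its values were seen, had 5386 against 5901 normalized counts. Its log2 fold change of -0.12 ± 0.04 passed as lower at an adjusted p under 0.05 (edgeR). It did not pass with upper-quartile scaling (-0.09), with library totals alone (-0.08), without 4T1-Sca1+ replicate 2 (-0.10) or without 4T1-Sca1- replicate 3 (-0.11). Lower were Ppp1r15a (-0.62 ± 0.06), Ddit3 (-0.60 ± 0.10), Asns (-0.50 ± 0.06) and Nupr1 (-0.17 ± 0.06). Atf5 rose by 0.90 ± 0.06, Ddit4 by 0.83 ± 0.10, Trib3 by 0.30 ± 0.08 and Chac1 by 0.21 ± 0.08. Chac1 was near the threshold (adjusted p = 0.0415, edgeR) and did not pass with DESeq2, GC-corrected offsets, or without 4T1-Sca1+ replicate 3 or 4 or 4T1-Sca1- replicate 1, 3 or 4 (0.14 to 0.19). Nupr1 did not pass without 4T1-Sca1+ replicate 2 (-0.14) or 4T1-Sca1- replicate 3 (-0.15), and Trib3 did not with GC-corrected offsets (0.14).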

How the data were processed

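RNA was measured by sequencing in 8 libraries. Per the labels, reads were trimmed with cutadapt 1.16 and aligned with STAR 2.5.3a to GRCm38 (submitters' processing notes). The counting tool and the use of strand are not given in the sources used here. The authors deposited raw counts per Ensembl gene, and a table of normalized signal that equals these counts divided by 1 size factor per library. Normalized counts printed here are these values. Because overlapping genes can share reads, Fosl1 and Junb are uncertain to that extent.

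Symbols, positions, exon lengths and transcript GC content came from GENCODE M21 on GRCm38 (16200 genes matched, 141 not). Counts were tested with edgeR 4.0.16 in R 4.3.3 after filterByExpr (11717 genes tested, 4624 not), with TMM scaling and a two-sided quasi-likelihood test without covariates. Adjustment was by Benjamini-Hochberg over all tested genes, at 0.05. Standard errors were obtained from the F statistic, as the size of the log2 fold change over its root. The fit was tested on simulated data.

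The members and gene lists were chosen with earlier results of these data known. Named were all members, Ly6a, the 5 genes most like Atf3 (mean of 100 normalized counts or more), and from each list up to 4 called genes per direction (mean of 50 or more). Some genes that this rule names are not reported here, though the counts of each list include them. Creb3l4, Hlf, Mafa, Srf, Atf4, Fam71a and its neighbours, and marker genes were named after their values were seen. Alternatives were DESeq2 size factors, upper-quartile scaling, library totals, GC-corrected offsets (loess, span 0.5), no filter, a minimum of 10 counts per library, the tests of DESeq2 1.42.0 and of limma 3.58.1 with voom, limma on the deposited signal as log2(value + 1), a block for replicate number, the longest transcript for TPM, an adjusted p under 0.01 and leaving out each library.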

Additional observations from a re-analysis of the deposited data

Results flagged for a closer look

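In a group of 4 libraries, 1 library lay far from the other 3 in 5 of 62 group comparisons, where chance gives about 1 in 20, or 3.1. That rate assumes normally distributed values. The comparisons are not independent, since the ratios share the Atf3 counts and repeat the values of single members. Fosb reached 5113 normalized counts in replicate 4 of 4T1-Sca1+, while the other 3 libraries held 4069.5 to 4113. Fosl1 reached 4040.1 in replicate 2 of 4T1-Sca1-, against 3727 to 3762. Jund reached 6455 in replicate 3 of 4T1-Sca1+, against 4214 to 4421. In the same library the log2 ratio of Atf3 to Jund was -4.57, below -3.91 to -3.88 in the other 3. The log2 ratio of Atf3 to Fosl1 was -3.85 there, below -3.69 to -3.66.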

How the results depend on the processing

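The log2 fold change of Atf3 ran from -2.47 to -2.38 over the 19 alternatives, and without single libraries its gap to the next lowest member ran from -2.15 to -2.01. Leaving out each library in turn gave 3 higher and 3 lower members in all 8 fits, and stress response genes that were lower ran from 3 to 5 (3 without 4T1-Sca1+ replicate 2 or 4T1-Sca1- replicate 3). GC-corrected offsets gave 1 higher and 6 lower members and 2 higher stress response genes. DESeq2 gave 1 higher member. An adjusted p under 0.01 gave 5 lower kinases and regulators and 3 lower stress response genes, and library totals alone gave 3 of the latter. Single values that changed sign, none of them past the threshold as first fitted, were Fos without single libraries (-0.15 to 0.0086, the latter for 4T1-Sca1+ replicate 3), Junb with the GC correction (-0.15) and without single libraries (-0.00095, for 4T1-Sca1+ replicate 3, to 0.22), and Fosl1 with upper-quartile scaling (0.0244), library totals alone (0.0379), at least 10 counts in every library (0.00600) and without single libraries (-0.0287 to 0.0179). Epcam with library totals alone (0.0127) and Srf with the GC correction (-0.26) and without single libraries (-0.0153, for 4T1-Sca1+ replicate 3, to 0.12) changed sign too. The cause was not tested. A fit with a replicate block called 3605 genes higher and 3452 lower, with 3 members higher and 3 lower and an Atf3 gap of -2.08, and it moved no call of a list by over 1.5 times. Libraries with the same number deviated from their group means with correlations of 0.0957, -0.15, -0.034 and -0.0011. These correlations gave no sign of pairing by number, but with 4 libraries per group they cannot exclude it. Depth limits Batf3 and Fam71a, which have few counts.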
